A study of Mus musculus with 17 samples.

Results

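The bone marrow cells described here came from Pig-a knock-out mice and were sorted into a fraction lacking proteins held by a glycosylphosphatidylinositol (GPI) anchor and a fraction carrying them. They were chosen as the arrays labelled with this genotype and with batch 1, which gives 6 of the series' 17 Affymetrix expression arrays, 3 GPI-negative and 3 GPI-positive. Both fractions came from the marrow of Pig-a knock-out mice and were separated by a fluorescein-labelled antibody mixture against CD24, CD48 and Gr-1. The GPI-positive cells are thus a control from knock-out marrow and not from wild-type mice. Whether both fractions came from the same animals is not stated. The labels do not say whether GPI-positive cells carry the deletion. The labels give no age, no sex, no driver of the deletion, no share of deleted cells and no animal for any array. They call the arrays biological replicates, and where they do not come from separate animals the p-values measure only the spread between arrays. For setting the knock-out against a second experiment, 7 arrays of batch 2 were used: GPI-negative cells from C57BL/6 mice given knock-out marrow (4 arrays) and GPI-positive cells from mice given wild-type marrow (3 arrays). The knock-out graft had been kept with 10 nM aerolysin, a toxin that lyses cells with GPI-anchored proteins, for 30 minutes, and its recipients had been irradiated with 9 Gy. The labels state neither treatment for the recipients of wild-type marrow.

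A GPI anchor is a glycolipid that is built in the membrane of the endoplasmic reticulum and attached to the end of a protein in place of a transmembrane segment. The first sugar is added by an enzyme complex whose catalytic subunit is the product of the X-linked gene Piga, so a cell without it loses all such proteins from its surface. In people, blood stem cells with a PIGA mutation give rise to paroxysmal nocturnal haemoglobinuria, in which red cells lacking the anchored complement inhibitors CD55 and CD59 are lysed. Bone marrow holds neutrophil precursors as its most abundant cells, together with red cell precursors, B cell precursors, monocytes and fewer T, natural killer (NK) and plasma cells. A sort by an anchor is not a sort by cell type, and on such bulk arrays fewer cells of a type and less RNA per cell cannot be told apart.

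All values are the log2 of the deposited signal, which was scaled alike on the 6 arrays, and a difference of 1 is 2-fold. Of 45101 probe sets, 12405 genes with a single symbol were tested, each through its brightest probe set. The neutrophil granule gene Mpo was bright on every array, between 8.35 and 10.08. It is 1 gene and does not by itself settle the labelled tissue. Several array measures moved with the fractions. Control transcripts added at hybridisation averaged 8.42, 8.89 and 8.29 on GPI-negative replicates 1, 2 and 3 against 6.88, 6.52 and 6.40 on the GPI-positive ones, and the difference between 3' and 5' probe sets of Gapdh was -0.29, -0.04 and -0.16 against -1.0, -1.02 and -1.03. The same difference for beta-actin, 0.92, 1.39 and 1.07 against 0.78, 0.94 and 1.05, overlapped between the fractions. The rise of the added controls per 10-fold concentration, in log10 units, was 0.977, 0.889 and 0.993 against 1.10, 1.10 and 1.07, without overlap. Their part in the results below was not tested. The GPI-positive arrays lay very close together, with Pearson's r of 0.993 between every pair across genes and a median SD over genes of 0.086, against r of 0.973 to 0.984 and a median SD of 0.190 among GPI-negative arrays. GPI-negative replicate 2 stood apart from replicates 1 and 3 in red cell genes, and replicates 1 and 3 from all other arrays of the batch in the X-linked RNA Xist. Because the closeness of the GPI-positive arrays narrows the error of every comparison, counts are also given with the GPI-positive arrays averaged into 1 sample, which is then assumed to vary like the GPI-negative arrays.

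Piga signal was lower in the GPI-negative fraction. On the brighter probe set it was 1.94, 2.19 and 1.92 on the 3 GPI-negative arrays and 3.98, 3.81 and 4.38 on the 3 GPI-positive arrays. No GPI-negative array came near a GPI-positive one. The difference was -2.04 ± 0.16 (SE, 3 arrays a group), a 4.1-fold lower signal (limma adjusted p = 4.14e-05, exact two-sided permutation p = 0.1, the smallest that 3 against 3 allows). A second probe set read 1.61, 1.86 and 1.07 against 2.86, 2.55 and 2.38, a difference of -1.09. The sources used here do not say which exons the knock-out deletes, so a remaining signal says nothing about remaining function.

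The other genes that build and attach the anchor changed little as a group. Of 26 measured genes of this list 3 rose and 4 fell, Piga among them, and the list median was 0.02 against a median of 0.0027 over all genes tested. Across all genes, 16.5% rose and 15.5% fell, so these counts are not above the background. Gpaa1, a subunit of the transamidase that joins anchor and protein, read 2.66, 2.97 and 2.88 against 3.97, 4.24 and 4.11 and fell by 1.27 ± 0.12 (adjusted p = 0.000113). Pigp and Pigh, which encode partners of Piga in the first enzyme, rose by 0.93 ± 0.13 and 0.75 ± 0.14, and Pigo, which adds ethanolamine phosphate, rose by 0.59 ± 0.13. With the GPI-positive arrays averaged, Piga and Gpaa1 were the 2 genes of this list still called.

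Genes of the anchored proteins themselves moved in both directions, 8 of 27 higher and 7 lower with a median of 0.06. Over all genes 16.5% were higher and 15.5% lower. Thy1, a T cell antigen, read 6.47, 6.64 and 6.49 in GPI-negative cells against 2.25, 2.25 and 2.17, a rise of 4.31 ± 0.09 (adjusted p = 3.09e-08). Izumo1r, a folate receptor family member found on regulatory T cells, rose by 2.25 ± 0.19, Bst2, a tether of viruses that plasmacytoid dendritic cells carry, by 2.02 ± 0.13, and Cd160, an NK cell receptor, by 1.46 ± 0.16. Plaur, the urokinase receptor of myeloid cells, fell by 1.41 ± 0.18.

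The genes of the sort antibodies did not follow a common direction. Cd24a read 9.73, 10.40 and 9.89 against 11.06, 11.03 and 11.25 on its brightest probe set and fell by 1.11 ± 0.16 (adjusted p = 0.00112; 0.0498 with the GPI-positive arrays averaged). Of its other probe sets 1 was lower (-0.65) and 1 was higher (0.60), so the direction depends on the probe set. Cd48 rose by 0.75 ± 0.11, from 5.92, 5.73 and 5.93 to 6.80, 6.46 and 6.58 (adjusted p = 0.00125), a call lost with the GPI-positive arrays averaged (0.102). Gr-1 is carried by the products of Ly6g and Ly6c, for which no probe set with a single symbol was used here.

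Across the transcriptome, 3968 of 12405 genes (32.0%) differed, with 2047 of them higher and 1921 lower in the GPI-negative fraction. Of all genes 752 (6.06%) changed by at least 2-fold, 372 upward and 380 downward. The largest rise, of Trbv1, was 32.9-fold and the largest fall, of Igha, 10.4-fold. For 47.7% of genes the GPI-negative arrays did not overlap the GPI-positive arrays. The balance of directions shifted with the processing, with cyclic loess normalization giving 2179 rises and 1793 falls, and the mean over each gene's probe sets giving 1809 rises and 2099 falls. With the GPI-positive arrays averaged, 605 genes were called (349 higher, 256 lower), and all 605 were among the 3968. Leaving out GPI-positive replicate 1, 2 or 3 gave 2575, 2571 and 2512 calls.

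**Figure D1:**
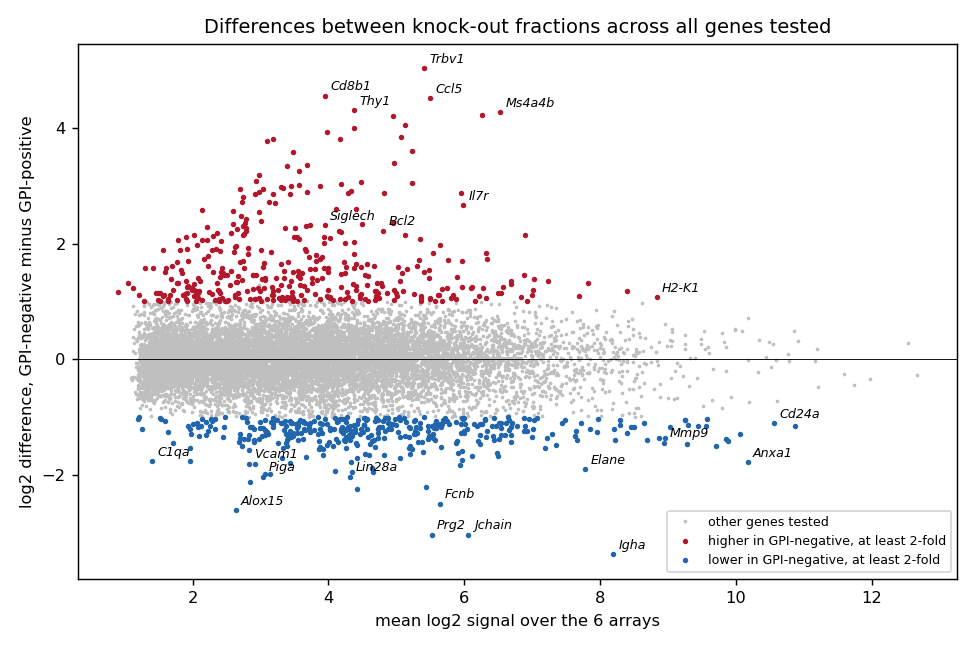
Log2 difference between GPI-negative and GPI-positive knock-out cells (vertical axis) against the mean log2 signal over the 6 arrays (horizontal axis), 1 point per gene tested. Red points mark the 372 genes called at least 2-fold higher and blue points the 380 called at least 2-fold lower in GPI-negative cells, with named genes from Trbv1 at 5.04 to Igha at -3.38.

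T cell genes were the largest rises in GPI-negative cells. All 18 measured genes of the T cell receptor complex and its coreceptors were higher, 17 of them at least 2-fold, where 16.5% of all genes were higher, and 16 stayed called with the GPI-positive arrays averaged. Trbv1, a variable segment of the receptor's beta chain, read 7.78, 7.86 and 8.15 against 2.78, 3.04 and 2.85, a 32.9-fold rise (5.04 ± 0.12, adjusted p = 4.71e-08). Cd8b1, a chain of the coreceptor of cytotoxic T cells, read 6.14, 6.46 and 6.10 against 1.79, 1.80 and 1.43 (23.6-fold). The signalling subunits Cd3g, Cd3e and Cd3d rose 15.4-fold, 14.1-fold and 12.2-fold. An alpha chain segment, Trav9d-3, rose 18.5-fold and its 2 other probe sets were also higher. Probe sets of variable segments can also pick up near-identical segments, so which segment gave the signal is uncertain.

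The 3 GPI-negative arrays were alike in this group. The mean level of the 18 T cell receptor genes was 5.02, 5.04 and 5.06 on them and 2.0, 2.09 and 1.96 on the GPI-positive arrays, and none of the 18 genes spanned 2-fold or more over the GPI-negative arrays. Cd3e and Bcl11b were near the dim end of the scale in GPI-positive cells (1.13, 1.75 and 0.96, and 0.73, 1.24 and 1.66), where the scale flattens, so their folds are approximate.

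**Figure D2:**
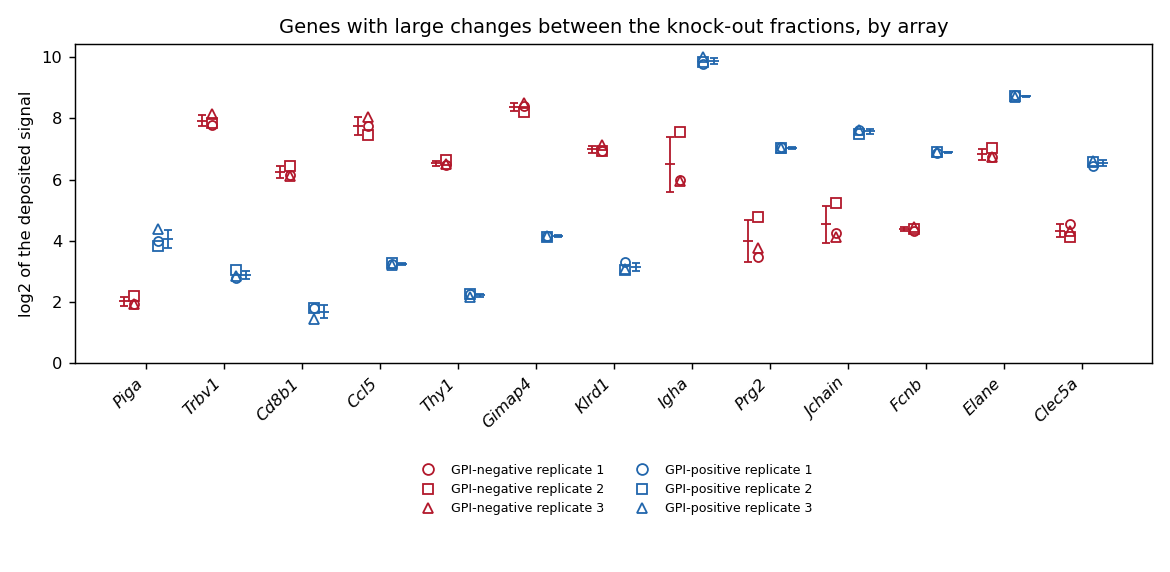
Log2 of the deposited signal (vertical axis) for 13 genes on each of the 3 GPI-negative (red) and 3 GPI-positive (blue) arrays of knock-out marrow; symbols mark replicates and the bars beside them the mean ± SD of each group. For each gene shown the fractions do not overlap, and Igha, Prg2 and Jchain are higher on GPI-negative replicate 2 than on replicates 1 and 3.

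Genes of T cell subsets followed. Of 17 genes of naive and memory T cells 15 rose with a median of 2.28, Cd44, an adhesion receptor shared with myeloid cells, fell by 0.99, and Bhlhe40 did not pass. Cxcr3, a chemokine receptor of effector cells, read 5.55, 5.59 and 5.96 against 2.53, 2.76 and 2.72. Il7r, the receptor for the survival cytokine interleukin 7, read 7.39, 7.31 and 7.26 against 4.68, 4.80 and 4.49. Dapl1, Il2rb and Cxcr6 rose by 3.18 ± 0.16, 3.03 ± 0.15 and 2.72 ± 0.10. For helper and regulatory T cells 15 genes were on the array. Of these, 10 were bright enough for testing on at least 3 of the 6 arrays, which the GPI-negative arrays alone can satisfy. Among the 10, 7 rose with a median of 1.28, including Gata3 (2.16 ± 0.24), Icos (1.89 ± 0.15) and Ctla4 (1.59 ± 0.26). Gata3 and Ctla4 were near the dim end of the scale in GPI-positive cells (0.53, 0.82 and 1.45, and 1.12, 1.04 and 0.29), so their folds are approximate. Foxp3, the regulatory T cell factor, did not pass (0.26), nor did Lag3 (0.29) and Il2ra (0.47); these 3 were named after their values were seen.

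Natural killer and cytotoxic genes rose together. Of 21 measured genes 20 were higher with a median of 2.31, and Itga2 did not pass (0.29). Ccl5, a chemokine stored by cytotoxic lymphocytes, read 7.76, 7.47 and 8.04 against 3.23, 3.28 and 3.19 (22.9-fold, adjusted p = 2.1e-07). Gzma, a granule protease, read 5.93, 5.97 and 6.33 against 2.41, 2.14 and 2.24 (14.1-fold). Klrd1, a subunit of inhibitory and activating NK receptors, rose 14.4-fold and Ctsw, a cathepsin of cytotoxic cells, 16.1-fold. All 8 Gimap genes, GTPases that support lymphocyte survival, rose by at least 2-fold and kept the call with the GPI-positive arrays averaged. Gimap4 read 8.42, 8.21 and 8.49 against 4.17, 4.11 and 4.17 (18.7-fold), and Gimap3 rose by 3.39 ± 0.12.

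Transcription factors of lymphocytes rose in 15 of 19 cases with a median of 1.15. Bcl11b, which commits cells to the T lineage, read 4.93, 5.12 and 4.91 and rose 13.7-fold. Eomes and Tbx21, which direct cytotoxic and NK programmes, rose by 2.49 ± 0.21 and 2.17 ± 0.14, Lef1 by 2.30 ± 0.10 and Themis, a thymocyte signalling protein, by 2.43 ± 0.11. Zbtb7b, the factor of CD4 T cells, was lower (-1.19), as was Nfil3 (-0.75), both named after their values were seen. Bcl2, the inhibitor of apoptosis, read 5.91, 5.98 and 5.85 against 3.51, 3.67 and 3.88. Outside the lists, Ms4a4b rose 19.4-fold and Kbtbd11 16.7-fold. Prkcq, a kinase of T cell receptor signalling, rose by 3.60 ± 0.28, Txk, a kinase of the Tec family, by 2.81 ± 0.16, and Cd96, a receptor of T and NK cells, by 2.96 ± 0.14.

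B cell genes rose by smaller amounts. Of 19 early B cell genes 13 rose and 3 fell (median 0.76), and 7 were higher and 1 was lower with the GPI-positive arrays averaged. Il7r and Lef1, which T cells also express, were the largest rises of this list. Igll1 and Vpreb1, which form the surrogate light chain of precursor B cells, read 6.55, 6.53 and 6.31 against 4.76, 4.57 and 4.52, and 7.11, 7.59 and 6.90 against 5.64, 5.58 and 5.17. Dntt, the enzyme that adds bases at receptor gene joints, rose by 1.40 ± 0.10. Bst1 (-1.33), Erg (-0.53) and Myb (-0.52) fell, named after their values were seen. Of 17 mature B cell genes 11 rose with a median of 0.46, which became 2 with averaging, Ltb and H2-Ob. Ltb, a cytokine also made by T cells, was the 1 member to reach 2-fold (1.11 ± 0.09), and Cxcr5, the receptor that brings B cells to follicles, rose by 0.78 ± 0.10.

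Plasma cell genes split. Igha, the constant region of immunoglobulin A, read 6.00, 7.55 and 5.94 in GPI-negative cells against 9.79, 9.84 and 10.01, a 10.4-fold fall (-3.38 ± 0.37, adjusted p = 0.00023; 0.0161 with averaging). Jchain, which links polymeric antibodies, read 4.26, 5.23 and 4.13 against 7.62, 7.48 and 7.63 (8.2-fold lower). GPI-negative replicate 2 was the highest of the 3 for both genes and still below every GPI-positive array. Probe sets of kappa variable segments from families 15 and 9 were 4.3-fold and 3.8-fold lower, again with uncertain identity of the segment. Of the 12 measured genes of the plasma cell list 4 fell and 2 rose, with a median of -0.12. Beside Igha and Jchain, Derl3 (-0.67) and Xbp1 (-0.40) fell, while Mzb1 rose by 0.53 ± 0.17 and Prdm1, the factor that drives the plasma cell state, by 0.51 ± 0.15. The calls of Mzb1 and Prdm1 were lost when GPI-negative replicate 1 or GPI-positive replicate 2 or 3 was left out. That of Xbp1 was lost without any 1 of the GPI-positive arrays. With averaging the calls of Derl3, Xbp1, Mzb1 and Prdm1 were all lost, while those of Igha and Jchain held.

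Most plasmacytoid dendritic cell genes and MHC class II genes were higher, with fewer calls among conventional dendritic cell and class I genes. Of 19 plasmacytoid dendritic cell genes 14 rose, 12 of them at least 2-fold, with a median of 1.31, and Zeb2 fell (-0.31, named after its value was seen). Ccr9, a homing receptor, read 5.71, 5.73 and 5.74 against 2.82, 2.77 and 2.94. Siglech, a receptor of these cells, read 5.24, 5.28 and 4.79 against 2.66, 2.89 and 2.82. Klk1 rose by 2.71 ± 0.15 and Cox6a2 by 1.88 ± 0.12. Of 12 conventional dendritic cell genes 6 rose and 1 fell (median 0.48), and 3 were higher with averaging, among them Ccr7, which naive T cells also carry, by 2.32 ± 0.12.

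Of 11 MHC class II genes 8 rose with a median of 0.51, all under 2-fold, and 2 stayed called with averaging. H2-Aa read 7.30, 7.38 and 7.01 against 6.29, 6.29 and 6.16. Of 14 class I and processing genes 5 rose. Nlrc5, the transactivator of class I genes, rose by 2.22 ± 0.13 and H2-K1 by 1.07 ± 0.10. The peptide transporter gene Tap1 rose by 1.06 ± 0.09, but its 1 other probe set was not higher. The immunoproteasome genes Psmb10 and Psmb8 rose by 0.76 ± 0.10 and 0.62 ± 0.09. Interferon-stimulated genes moved both ways, with 6 of 26 higher and 3 lower (median 0.20, range -0.65 to 1.54). Over all genes 16.5% were higher and 15.5% lower, and nothing is read from these counts. The higher ones included Ifi47 (1.54 ± 0.12), Igtp (1.09 ± 0.11) and Gbp2 (0.99 ± 0.10), GTPases induced by interferon gamma. Xaf1 (0.85 ± 0.18) and Mx1 (0.72 ± 0.12) were also higher, calls lost with averaging.

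Neutrophil granule genes had the lowest medians of all the lists. Of 10 neutrophil primary granule genes, which promyelocytes express, 8 fell with a median of -1.23, where 15.5% of all genes fell, and 6 fell with averaging. Fcnb, a ficolin, read 4.31, 4.39 and 4.45 against 6.87, 6.89 and 6.90 (5.7-fold lower). Elane, neutrophil elastase, read 6.73, 7.02 and 6.72 against 8.75, 8.73 and 8.72 and fell by 1.90 ± 0.10. Mpo, myeloperoxidase, read 8.62, 8.35 and 8.65 against 9.98, 10.08 and 9.98. Cst7, a cystatin that cytotoxic lymphocytes also make, was the 1 member that rose (0.43, named after its value was seen).

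Of 22 secondary and tertiary granule genes, which later neutrophil stages express, 19 fell with a median of -1.19, and 14 with averaging. Mmp9, gelatinase B, read 8.57, 7.82 and 8.28 against 9.66, 9.69 and 9.66. Anxa1 fell by 1.79 ± 0.14, Padi4, which citrullinates histones, by 1.46 ± 0.17 and Cd177, an anchored neutrophil antigen, by 1.39 ± 0.19. S100a8 (-0.28), Ngp (-0.26) and S100a9 (0.28) did not pass and were named after their values were seen. These transcripts remained abundant in the GPI-negative fraction, since the list's mean level was 8.36, 7.87 and 8.08 on its arrays against 9.17 to 9.21 on the GPI-positive ones. Replicate 2 was the lowest.

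Eosinophil genes led the falls of the list for eosinophils, basophils and mast cells. Of the 13 genes of the joint list 9 fell with a median of -0.70, and 4 with averaging. Prg2, major basic protein, read 3.45, 4.76 and 3.77 against 7.06, 7.04 and 7.02 (8.2-fold lower). Alox15, a lipoxygenase, read 1.65, 1.17 and 1.15 against 3.87 to 4.06, and Epx, eosinophil peroxidase, 2.0, 2.66 and 1.77 against 4.14, 4.12 and 4.14. Gata2, shared with progenitors, rose by 0.41 ± 0.14 (adjusted p = 0.0466), a call lost without any 1 of the GPI-negative arrays. Other large falls were Gca, a calcium-binding granule protein (4.8-fold), Clec5a, a myeloid lectin (4.6-fold), Lin28a, an RNA-binding protein that blocks let-7 maturation (4.1-fold), Ncam1, an adhesion molecule (4.0-fold), Prom1, a stem cell antigen (3.9-fold) and Abca13 (3.9-fold). Outside the lists, Orm1, an acute phase protein, read 3.55, 3.44 and 3.34 against 5.21, 5.25 and 5.23, and Clec4a2 fell by 1.74 ± 0.14.

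The regions just before the start of 4 of these genes are shown because they stand for groups that moved together: Cd3d for T cells, Gzma for cytotoxic cells, Elane for neutrophils and Epx for eosinophils. Each is the 200 bases before the start in RefSeq's GRCm38.p6 annotation, 5′ to 3′ on the gene's strand. Capitals mark any match on either strand to the motifs searched. The motif of RUNX factors was taken as TGTGGT. That of the blood cell regulators of the GATA family was taken as AGATAA. For the large family of ETS proteins it was AGGAAG, and for C/EBP factors TTGCNNAA. No motif holds another.
Cd3d, chr9:44981586-44981785, plus strand: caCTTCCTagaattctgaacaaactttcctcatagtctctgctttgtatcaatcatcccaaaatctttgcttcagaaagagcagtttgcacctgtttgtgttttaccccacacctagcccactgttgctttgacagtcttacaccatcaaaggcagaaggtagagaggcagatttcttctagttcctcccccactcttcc
Gzma, chr13:113100982-113101181, minus strand: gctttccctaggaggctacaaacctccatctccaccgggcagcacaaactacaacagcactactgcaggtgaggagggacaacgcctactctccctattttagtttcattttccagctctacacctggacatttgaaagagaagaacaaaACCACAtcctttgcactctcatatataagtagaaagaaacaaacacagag
Elane, chr10:79886112-79886311, plus strand: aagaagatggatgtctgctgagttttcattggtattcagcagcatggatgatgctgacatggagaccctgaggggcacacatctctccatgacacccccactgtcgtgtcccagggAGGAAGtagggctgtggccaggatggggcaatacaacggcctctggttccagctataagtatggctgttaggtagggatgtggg
Epx, chr11:87875537-87875736, minus strand: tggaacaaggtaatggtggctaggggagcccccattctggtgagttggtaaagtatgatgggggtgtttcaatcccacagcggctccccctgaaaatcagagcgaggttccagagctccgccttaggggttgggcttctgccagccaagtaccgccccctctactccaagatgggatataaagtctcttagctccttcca
Cd3d and Elane hold 1 match each to the ETS core, Gzma holds 1 to the RUNX core, and Epx holds none of the 4 motifs in this window. Over the 250 bases before the start, 28.6% of the 10049 tested genes with an entry held the ETS core, against 39.6% of 278 genes at least 2-fold higher and 38.5% of 299 genes at least 2-fold lower in GPI-negative cells. For the RUNX core the shares were 11.1%, 18.3% and 15.7%, for the GATA motif 6.2%, 8.3% and 6.4% and for the C/EBP motif 7.4%, 9.4% and 10.7%. No test was made, and a match is a description of letters, not a binding site.

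Monocyte and macrophage genes had lower medians as well. Of 17 monocyte genes 8 fell and Ly86 rose (0.46, named after its value was seen), with a median of -0.48, and limma called 0 with averaging (7 lower at an unadjusted p under 0.05). Sirpa, an inhibitory receptor, read 5.35, 4.65 and 5.49 against 6.29, 6.27 and 6.16. For macrophages 21 genes were on the array. Of these, 18 were bright enough for testing on at least 3 of the 6 arrays, which the GPI-positive arrays alone can satisfy. Of 18 macrophage genes 11 fell, 5 of them at least 2-fold, with a median of -0.68, and 2 fell with averaging. Vcam1, an adhesion molecule of marrow macrophages, read 1.87, 1.90 and 2.0 against 3.78, 3.81 and 3.61. C1qa, which macrophages make for the classical complement pathway, read 0.38, 0.85 and 0.31 against 2.21, 2.33 and 2.30, near the dim end of the scale. It was kept for testing through the GPI-positive arrays alone. Maf rose by 1.04 ± 0.25.

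Receptors and factors of myeloid cells moved with these groups. Of 16 genes of complement and its receptors 7 fell (median -0.46), among them Itgam, a chain of complement receptor 3, by 1.62 ± 0.14 and C5ar1, the receptor for C5a, by 1.51 ± 0.20, while Itgax rose by 1.07 ± 0.12. The anchored complement inhibitors Cd55 (-0.25) and Cd59a (0.08) did not pass. Of 13 genes of Toll-like receptors and their partners 8 fell, including Tlr4 by 0.97 ± 0.13 and Tlr13 by 1.13 ± 0.21, and Tlr1 rose by 1.07 ± 0.10. The myeloid transcription factors Cebpd, Cebpb and Cebpa fell by 1.41 ± 0.24, 1.16 ± 0.26 and 0.94 ± 0.14, while Irf8, which plasmacytoid dendritic cells also use, rose by 1.31 ± 0.14. With averaging, Irf8 was the 1 factor of this list of 13 still called.

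Over all genes 16.5% rose and 15.5% fell. Among inflammatory mediators 4 of 18 fell, a share near that of all genes, and nothing is read from this count. The 4 were Cxcl2, a neutrophil attractant (-1.57 ± 0.14), Ptgs2 (-1.31 ± 0.21), Il1rn (-1.15 ± 0.19) and Osm (-0.97 ± 0.15). Tnfaip3 rose by 0.67 ± 0.13. Of 18 genes of glycolysis 9 fell and 3 rose, with Hk3, the hexokinase of myeloid cells, at 6.32, 5.66 and 5.87 against 7.26, 7.20 and 7.33. Of 19 adhesion and homing genes 9 rose and 5 fell. Itgae and S1pr1, of T cells, rose by 1.90 ± 0.21 and 1.53 ± 0.10, while Itgam and Vcam1 fell. Itgae was near the dim end of the scale in GPI-positive cells (0.97, 0.42 and 1.21), so its difference is approximate.

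No gene of the lists for protein synthesis and cell division changed by 2-fold. Of 17 cytosolic ribosomal protein genes 13 rose (median 0.48), of which limma called 0 with averaging (7 higher at an unadjusted p under 0.05), and Rps15 read 9.23, 9.17 and 9.41 against 8.66, 8.67 and 8.63. Of 24 mitochondrial ribosomal protein genes 7 rose and none fell (median 0.13). Of 26 mitosis genes 14 fell and none rose (median -0.56). Cdc20, which triggers anaphase, read 6.26, 6.66 and 6.66 against 7.30, 7.23 and 7.31. Of 25 DNA replication genes 5 fell (median -0.23), a share near the 15.5% of all genes that fell. Rrm1, a subunit of ribonucleotide reductase, fell by 0.57 ± 0.13. With averaging limma called 0 of either list (8 mitosis and 2 replication genes were lower at an unadjusted p under 0.05). Without GPI-negative replicate 2, 26 of 26 mitosis genes and 13 of 25 replication genes fell, where 2466 of all 12405 genes did. That array was singled out from these same data, so the calls gained without it are only a description. The median of the mitosis list against the GPI-positive mean was -0.84 and -0.65 on replicates 1 and 3 and -0.19 on replicate 2.

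**Figure D3:**
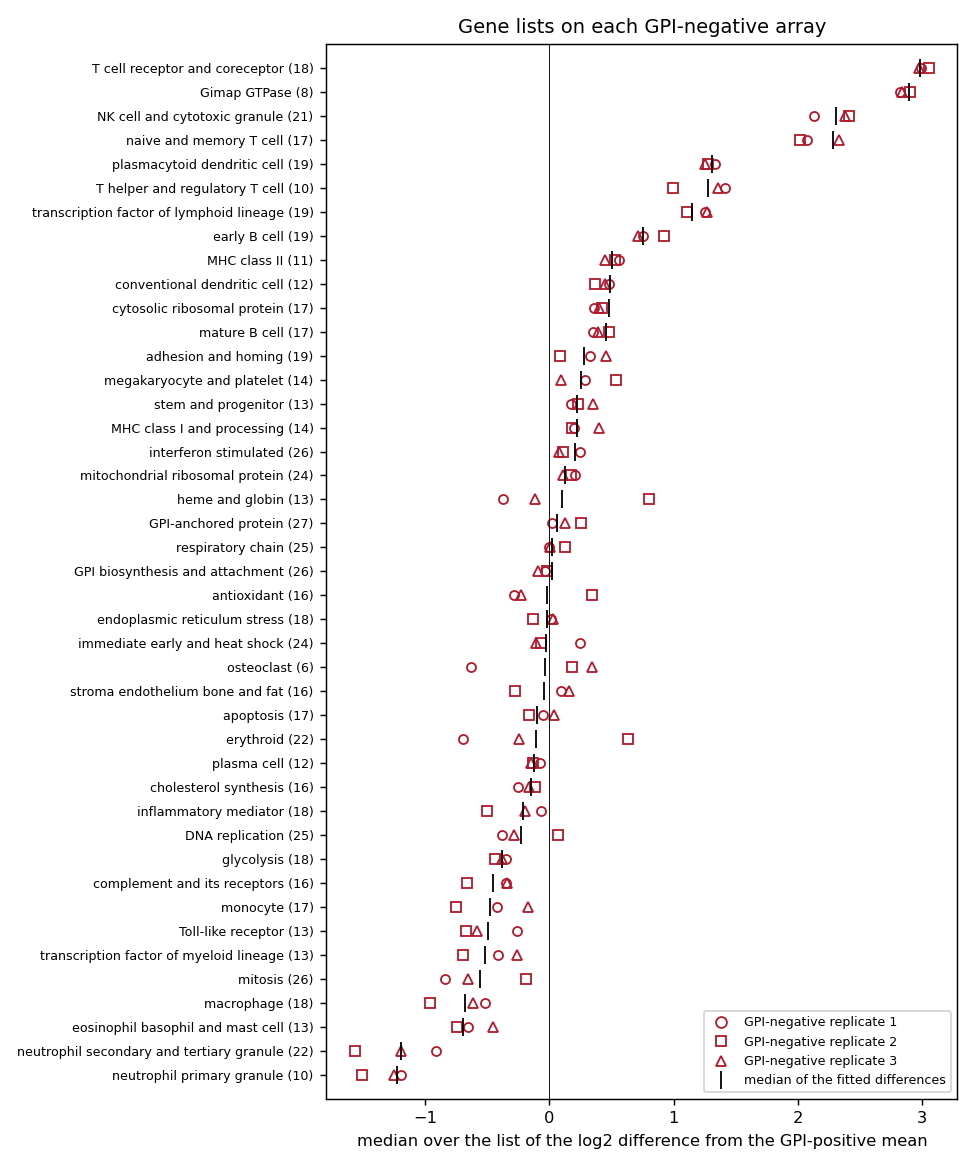
Median log2 difference from the GPI-positive mean (horizontal axis) for each gene list on each GPI-negative array, with the number of genes tested in brackets and a black bar at the median of the fitted differences. The T cell receptor list is at 2.99, 3.05 and 2.97 on replicates 1, 2 and 3, while the erythroid list is at -0.70, 0.63 and -0.25 and the heme and globin list at -0.38, 0.80 and -0.12.

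The GPI-negative arrays differed among themselves more than the GPI-positive ones. For 78.1% of genes their SD was the larger, and 540 genes (4.35%) spanned at least 2-fold over the 3 GPI-negative arrays against 59 (0.476%) over the GPI-positive arrays. Replicate 2 stood apart most often: it was the array apart on the high side for 199 and on the low side for 119 of the 540 genes, against 50 and 72 for replicate 1 and 46 and 54 for replicate 3. It held 43.2% of the within-group sum of squares.

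Among the lists, red cell genes were spread the most. Of 22 erythroid genes 19 spanned at least 2-fold among the GPI-negative arrays, and the mean level of the list was 5.21, 6.50 and 5.64 on replicates 1, 2 and 3 against 5.89, 5.89 and 5.94 on the GPI-positive arrays. Replicate 2 lay above every GPI-positive array and replicates 1 and 3 lay below them. Limma called 1 of the 22, Nfe2, a transcription factor that platelets also need (-0.70 ± 0.10). Without replicate 2, limma called 16 of 22 lower, where it called 2466 of all 12405 genes lower. Replicate 2 was singled out from these same values, so calls gained without it are a description. Limma called 0 of 13 heme and globin genes (1 lower at an unadjusted p under 0.05). Of the 13, 5 were lower without replicate 2. Without replicate 1, 2 were higher, where 1957 of all 12405 genes were. Hbb-b2, an adult beta globin whose probe set may also read its near-identical neighbour, read 4.79, 6.70 and 4.26 against 4.56, 4.86 and 4.76. Tspo2, an erythroid transporter, read 3.67, 5.91 and 4.0 against 4.45, 4.35 and 4.57, and its difference was 0.07 with all arrays and -0.62 without replicate 2. Marchf2 (5.80, 7.65 and 5.79), Isca1, an iron-sulfur assembly gene (6.67, 8.32 and 6.39), Aldh1a1 (4.75, 6.53 and 4.71) and Tfdp2 (5.59, 7.53 and 5.34) were also highest on replicate 2.

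**Figure D4:**
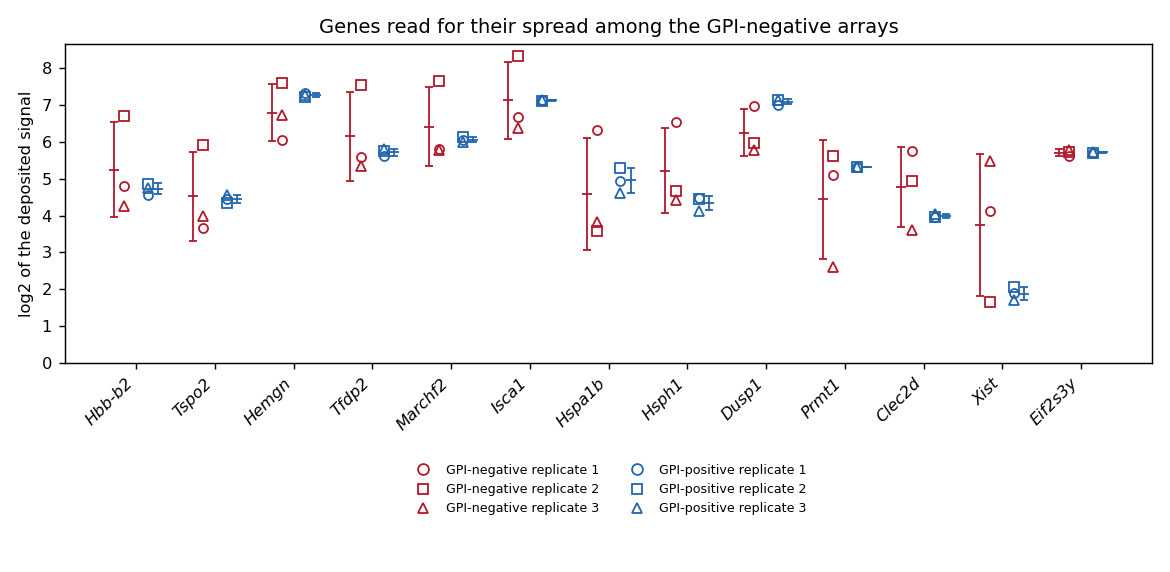
Log2 of the deposited signal (vertical axis) for 13 genes on each GPI-negative (red) and GPI-positive (blue) array, with the mean ± SD of each group. Hbb-b2, Tspo2, Tfdp2, Marchf2 and Isca1 are highest on GPI-negative replicate 2, Hspa1b and Hsph1 on replicate 1, Prmt1 is lowest on replicate 3, and Eif2s3y is alike on all 6 arrays.

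Single stress genes set replicate 1 apart, and other single genes replicate 3. Of 24 immediate early and heat shock genes 5 spanned at least 2-fold over the GPI-negative arrays, and the list medians against the GPI-positive mean were 0.25, -0.07 and -0.11 on replicates 1, 2 and 3. The heat shock gene Hspa1b, a chaperone, read 6.33, 3.59 and 3.82 in GPI-negative cells against 4.94, 5.30 and 4.63, and Hsph1, its nucleotide exchange factor, 6.54, 4.68 and 4.43 against 4.47, 4.44 and 4.13. The immediate early gene Fos read 7.42, 6.64 and 6.62 against 7.99 to 8.01, and Dusp1, a phosphatase induced in the same way, 6.98, 5.98 and 5.79 against 7.01, 7.13 and 7.12. Their list had 7 of 24 genes higher, Hspa8 by 0.98 ± 0.15 and Myc by 0.79 ± 0.10 among them, and 6 lower. Prmt1, an arginine methyltransferase, read 5.10 and 5.62 on replicates 1 and 2 and 2.61 on replicate 3, where the GPI-positive arrays read 5.31 to 5.33. Clec2d, a ligand of an NK receptor, read 5.75, 4.94 and 3.62 against 3.97, 3.95 and 4.05. None of these array-to-array differences could be tested, since each rests on 1 array.

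The sex-linked genes also separated the GPI-negative arrays. The Y-linked gene Eif2s3y lay between 5.61 and 5.79 and Kdm5d between 3.08 and 3.50 on all 6 arrays of batch 1. Xist, the RNA that silences an X chromosome in female cells, read 4.12, 1.67 and 5.47 on GPI-negative replicates 1, 2 and 3 against 1.90, 2.05 and 1.71 on the GPI-positive arrays. Replicates 1 and 3 lay above every GPI-positive array and replicate 2 lay below them. Its difference of 1.87 ± 0.76 did not pass (adjusted p = 0.0958). A second Xist probe set had the same order, at 3.24, 0.03 and 4.67 against 0.49, 1.18 and 0.65. In batch 2, the 11 arrays held Xist between 7.40 and 8.18 and Eif2s3y between 0.07 and 0.89. The GPI-negative replicates 1 and 3 therefore carried both a Y-linked signal as high as on the other arrays and an intermediate Xist signal; what gave this combination was not tested. With GPI-negative replicate 1, 2 or 3 left out, 18 of 18 T cell receptor genes were higher each time. Over all 12405 genes, 1957, 2390 and 1885 were higher in these fits.

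**Figure D5:**
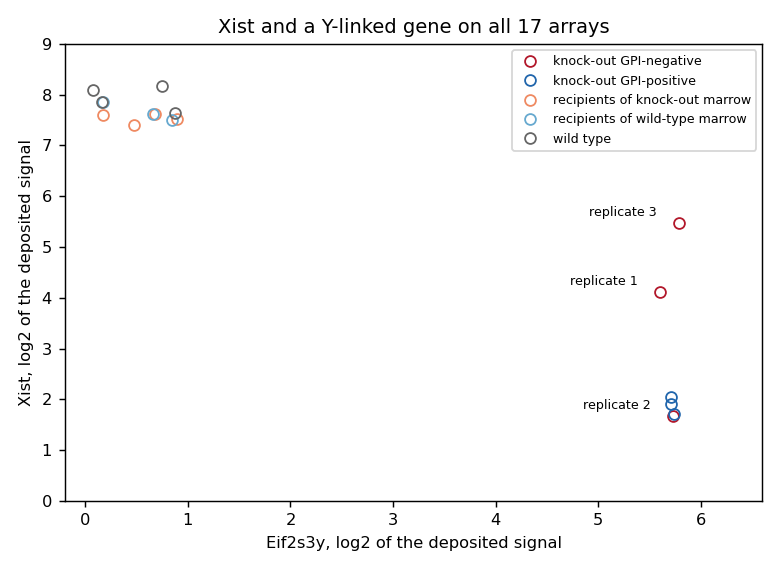
Xist (vertical axis) against the Y-linked gene Eif2s3y (horizontal axis), both as log2 of the deposited signal, on all 17 arrays, coloured by group. The 11 arrays of batch 2 lie at Xist of 7.40 or more, the GPI-positive knock-out arrays at 2.05 or less, and GPI-negative knock-out replicates 1 and 3 lie between, at 4.12 and 5.47.

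Set against the recipients, the knock-out contrast had larger medians for the T cell, NK cell and Gimap lists. Several other list medians had the opposite sign, those of early B cell and monocyte genes among them. The recipients' contrast sets GPI-negative cells from mice given knock-out marrow against GPI-positive cells from mice given wild-type marrow, shares no array with the knock-out contrast and was normalized in a separate batch. Batch, graft, treatment and the sex-linked signals of the arrays differ between the contrasts together, and their parts cannot be told apart. The difference between the contrasts passed for 22.6% of all genes. The 15 genes with the largest rises and the 15 with the largest falls were chosen for the size of the knock-out change, and such a choice favours larger values there. All 15 risers were also higher in the recipients, where 4.79% of all genes were, and each rose less there: Thy1 by 2.16 against 4.31 and Cd8b1 by 2.28 against 4.56. Of the 15 fallers 6 were also called lower in the recipients, where 4.14% of all genes were, and 13 differed between the contrasts. Igha was 0.35 in the recipients against -3.38 in the knock-out (difference -3.73 ± 0.48, adjusted p = 3.87e-05), and Clec5a was -0.11 against -2.22. Piga was -3.62 in the recipients against -2.04 in the knock-out.

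Whole lists showed where the contrasts parted. The T cell receptor median was 2.99 in the knock-out and 1.20 in the recipients, and 17 of 18 genes differed. The neutrophil secondary and tertiary granule median was -1.19 against 0.03, with 19 of 22 genes differing, and the monocyte median -0.48 against 0.85, with 16 of 17. The early B cell median was 0.76 against -0.24, with 14 of 19 differing, though limma called 0 of the 19 in the recipients. The mature B cell median was smaller in the knock-out (0.46 against 0.66, with 7 of 17). Signs were also opposite for the eosinophil, basophil and mast cell list (-0.70 against 0.21), Toll-like receptors (-0.49 against 0.39) and complement (-0.46 against 0.15). The NK cell and cytotoxic median was 2.31 against 0.98, with 15 of 21, and that of the Gimap genes 2.89 against 1.39, with 8 of 8. The medians of the naive and memory T cell list were 2.28 against 0.64, and of the helper and regulatory list 1.28 against 0.50. In contrast, 1 of 11 MHC class II genes (0.51 against 0.97) and 2 of 26 mitosis genes (-0.56 against -0.77) differed, which is not above the background share of 22.6%.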

How the data were processed

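The authors deposited 1 table of values for 17 arrays, on a log10-like scale (0 to 3.857 in batch 1). No source used here states the base. It was read from the hybridisation controls: per 10-fold more RNA spiked in, their value rose by 1.02 ± 0.0828 (mean ± SD of the 6 arrays), less on each GPI-negative than on any GPI-positive array. The sorted values of the arrays of a batch are identical, which shows quantile normalization per batch before deposit. The array maker's software GCOS appears in the submitters' processing notes, which state no role for it. Towards 0 the scale flattens, so differences of dim genes are approximate.

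The deposited log10 values were converted to log2. Probe sets reaching their array's 40th percentile on at least 3 of the 6 arrays were kept. The 3 arrays of 1 fraction alone can meet this rule. Of the kept probe sets, the brightest with 1 gene symbol stood for a gene (12405 genes). Of 45101 probe sets 34945 carry 1 symbol, 932 several and 9160 none by the platform annotation, and 64 are controls; RefSeq's GRCm38.p6 table held 34741. The 6 arrays were fitted with limma 3.58.1 in R 4.3.3 (lmFit, eBayes with an intensity trend, 4 residual degrees of freedom). Benjamini-Hochberg adjustment covered all genes, with a threshold of 0.05, and errors are standard errors (SE; median 0.135). "With averaging" means that the 3 GPI-positive arrays were averaged into 1 sample. The contrasts of knock-out and recipients were compared by an interaction contrast in a fit over all 17 arrays. In data simulated with 12405 genes and 3 arrays a group, 73% of 2-fold and 96% of 4-fold changes were recovered. Limma also called 8 unchanged genes. The simulated arrays were independent and both fractions shared 1 SD per gene, while the real GPI-negative arrays spread more than the GPI-positive ones. These rates therefore need not hold for the real arrays. The number of arrays limits the precision.

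The arrays, the 44 gene lists and the rules were chosen with earlier results of these data known. Named genes are the 15 largest changes in each direction among called genes without overlap of the groups, Piga and the genes of the sort antibodies, up to 5 called members of each list (the 2 largest where fewer than 2 were called), the 15 genes most spread among GPI-negative arrays, 10 large changes in each direction outside the lists, and sex-linked genes. The alternatives tried were the fit over 17 arrays, no trend, array weights, no dim filter or one on the mean, the mean of probe sets, cyclic loess, the replicate number as a block, the averaging, and leaving out each array. Promoter sequences are RefSeq's, from the first start listed for a gene.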

Additional observations from a re-analysis of the deposited data

Results flagged for a closer look

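Of the 30 genes with the largest changes in the knock-out, 28 differed between the knock-out and the recipients' contrast (limma interaction test over 17 arrays, adjusted p under 0.05), where 22.6% of all genes did. The genes were chosen for their size in the knock-out contrast, and batch, graft, treatment and the sex-linked signals cannot be told apart from the contrast. The values here are the knock-out log2 difference minus that of the recipients.

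Every one of the 15 risers rose more in the knock-out. Among T cell genes the excess was 2.27 for Trbv1, 2.28 for Cd8b1, 2.15 for Thy1, 1.96 for Trav9d-3, 1.73 for Cd3g, 2.38 for Cd3e, 1.30 for Cd3d and 2.30 for Bcl11b. Among cytotoxic genes it was 1.61 for Ccl5, 2.04 for Ctsw, 1.70 for Klrd1 and 2.27 for Gzma. It was 1.56 for Ms4a4b, 1.80 for Gimap4 and 1.82 for Kbtbd11.

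Among antibody genes the difference was -3.73 for Igha, -2.13 for Jchain and -1.64 and -2.35 for the kappa segments of families 15 and 9. Among myeloid genes it was -1.77 for Alox15, -0.94 for Fcnb, -1.77 for Gca and -2.10 for Clec5a. It was -2.07 for Lin28a, -1.41 for Ncam1, -1.21 for Prom1 and -1.55 for Abca13. Piga differed the other way, by 1.58, since its fall was larger in the recipients. Prg2 and Epx did not pass (adjusted p = 0.0671 and 0.312).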

How the results depend on the processing

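The count of changed genes rested most on the GPI-positive arrays. Averaging them into 1 sample left 605 genes (349 higher, 256 lower, 230 of them at least 2-fold lower), where the lone sample is assumed to vary like the GPI-negative arrays. Leaving out each array in turn gave 2512 to 4856 changed genes, 1305 to 2390 higher and 1207 to 2466 lower, with the lowest counts without GPI-positive replicate 3 and the highest without GPI-negative replicate 2. The other alternatives kept the counts within 1.5 times. Deviations of same-numbered arrays from their group means correlated at -0.020, -0.044 and -0.047 across genes. The GPI-positive arrays varied so little that these values cannot show whether both fractions came from the same animals. The replicate block gave 3540 changed genes (1793 higher, 1747 lower). Piga stayed called under every alternative, at -1.56 to -2.16. Of the 30 genes compared with the recipients, 25 to 29 differed when any array was left out. Averaging all probe sets per gene, Birc3 went to -0.03 and Nfatc1 to -0.13. Leaving out 1 array moved genes that GPI-negative replicate 2 alone held high from below to above 0: Armc8 ranged from -0.49 to 0.78, Tspo2 from -0.62 to 0.50, Fam220a from -0.31 to 0.69, Marchf2 from -0.26 to 0.67, Specc1 from -0.44 to 0.55 and Aldh1a1 from -0.52 to 0.39, each lowest without replicate 2. The cause of these shifts was not tested. With 3 arrays a group, genes of dim signal and changes well under 2-fold are the least certain, and the labels do not say how many animals stand behind an array.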

Other observations

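Of 14 megakaryocyte and platelet genes 4 rose and Selp fell, where 16.5% of all genes rose and 15.5% fell. The thrombin receptor gene F2r, which lymphocytes also express, read 5.30, 5.04 and 5.52 in GPI-negative cells against 3.21, 3.18 and 2.87. Pf4, a platelet chemokine, rose by 0.94 ± 0.11. Among the risers, Gp5 and Itga2b lost their calls without GPI-positive replicate 1 or 3. Of 13 stem and progenitor genes 4 rose, the receptor gene Flt3 by 0.90 ± 0.15, and limma called 0 lower (0 at an unadjusted p under 0.05). With averaging limma called 0 of the 13 (1 higher at an unadjusted p under 0.05). Among 16 genes of stroma, endothelium, bone and fat, Pecam1, which lymphocytes and platelets also carry, rose by 1.09 ± 0.19 and Col1a1 by 0.81 ± 0.18, while Fabp4 and Lpl fell by 0.56 ± 0.16 and 0.38 ± 0.11. Acp5, a phosphatase of osteoclasts and macrophages, read 5.01, 5.75 and 4.88 against 3.89 to 4.0. Of 6 osteoclast genes 2 rose and 2 fell. Nothing is read from the counts of the megakaryocyte, stem and progenitor, stroma and osteoclast lists.

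Of 17 apoptosis genes 5 rose and 2 fell, Bcl2 standing out at 2.23 ± 0.11. Of 16 antioxidant genes 5 fell and 1 rose, and Gsr, glutathione reductase, read 6.86, 5.98 and 6.44 against 7.89, 7.97 and 8.02. Of 25 respiratory chain genes 3 rose and Sdhd fell, though its 1 other probe set was not lower. Of 16 cholesterol synthesis genes 1 rose and 4 fell, and of 18 endoplasmic reticulum stress genes 2 rose and 3 fell. The respiratory chain, cholesterol synthesis and endoplasmic reticulum stress medians were 0.02, -0.15 and -0.02. Over all genes 16.5% rose and 15.5% fell, and nothing is read from counts near these shares. Of the 4 sex-linked genes none were called by limma, and 2 were higher at an unadjusted p under 0.05.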
